A study of Mus musculus with 2 samples.

Results

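A total of 3097 of 60121 nuclei, or 5.15%, carried a high score for osteoclast genes in single-nucleus RNA-seq of mouse tumors driven by CIC::DUX4, the fusion transcription factor of CIC-DUX4 sarcoma (CDS). The score of a nucleus was the number of unique molecular identifiers (UMIs, each marking 1 captured RNA molecule) of 9 genes, Atp6v0d2, Nyap2, St18, Slc9b2, Acp5, Ctsk, Ocstamp, Dcstamp and Mmp9, per 10000 UMIs of that nucleus. A nucleus was taken as score-positive when it held at least 1000 UMIs, less than 5% mitochondrial UMIs, a score of at least 20 and a UMI of at least 3 of these genes. The rule read gene expression in all 8 tumors, so the levels of these 9 genes are given as a description and were not tested between classes of nuclei.

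The gastrocnemius, a hind limb muscle, of young adult dFLEx CDS mice was electroporated with pCAG-Cre and pCAG-FLPE plasmids, which together switch on a CIC::DUX4 transgene knocked into the Rosa26 locus. Of the 8 tumors, 4 were untreated, from mice of the genotype dFLEx CDS +/-, and 4 came from dFLEx CDS mice given daily Minnelide, a water-soluble prodrug of triptolide, at 0.42 mg/kg for 21 days. Both groups thus carried the fusion transgene and received both recombinase plasmids. The label of the Minnelide group gives no zygosity. Each deposited count matrix was taken as 1 tumor. All untreated matrices carry 1 sample label and all Minnelide matrices the other. Treatment thus cannot be told apart here from any other difference between these samples. The matrices are called untreated tumor 1 to 4 and Minnelide tumor 1 to 4, where the numbers only name the matrices in the order of their files, and p-values measure the spread between these matrices.

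Osteoclasts are large multinucleated cells of the macrophage lineage that dissolve bone. Macrophage colony-stimulating factor acts through CSF1R and RANKL acts through RANK (Tnfrsf11a) to switch on the transcription factor NFATc1, after which precursors fuse, attach to bone through a ring of actin, pump acid through a vacuolar proton ATPase (V-ATPase) and secrete the protease cathepsin K. Cells with the look of osteoclasts are also known outside bone, in tumors rich in giant cells. Acp5, Ctsk and Mmp9 are among the enzymes that osteoclasts secrete in quantity, but fibroblasts and macrophages can use them too.

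The rule genes fall into 3 roles. Atp6v0d2 (chr4:19876838-19922614, minus strand) codes for the V-ATPase subunit d2, and Dcstamp and Ocstamp code for membrane proteins needed for the fusion of precursors. Acp5 codes for tartrate-resistant acid phosphatase, Ctsk for cathepsin K and Mmp9 for a gelatinase, while Slc9b2 codes for a sodium/proton exchanger of osteoclasts, St18 for a zinc finger transcription factor and Nyap2 for an adaptor of phosphoinositide 3-kinase signaling. The promoters of Atp6v0d2, Dcstamp, Ocstamp and Slc9b2 are shown because, of the rule genes, these have a window that ends at the outermost start of the gene. Each runs over the 250 bases before the annotated start (GRCm39 genome, GENCODE vM39), 5′ to 3′ on the strand of the gene, with matches to searched motifs in capitals.

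Atp6v0d2, chr4:19922615-19922864, minus strand: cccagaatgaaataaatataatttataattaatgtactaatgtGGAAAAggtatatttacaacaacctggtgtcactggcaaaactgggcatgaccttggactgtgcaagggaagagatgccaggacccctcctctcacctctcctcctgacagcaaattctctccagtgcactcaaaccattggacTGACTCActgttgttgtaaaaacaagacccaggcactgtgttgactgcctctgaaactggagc
Dcstamp, chr15:39608964-39609213, plus strand: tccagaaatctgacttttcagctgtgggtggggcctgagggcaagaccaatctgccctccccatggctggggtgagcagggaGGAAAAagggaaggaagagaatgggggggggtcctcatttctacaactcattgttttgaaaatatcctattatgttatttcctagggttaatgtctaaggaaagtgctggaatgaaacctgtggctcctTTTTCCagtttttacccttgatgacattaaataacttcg
Ocstamp, chr2:165242337-165242586, minus strand: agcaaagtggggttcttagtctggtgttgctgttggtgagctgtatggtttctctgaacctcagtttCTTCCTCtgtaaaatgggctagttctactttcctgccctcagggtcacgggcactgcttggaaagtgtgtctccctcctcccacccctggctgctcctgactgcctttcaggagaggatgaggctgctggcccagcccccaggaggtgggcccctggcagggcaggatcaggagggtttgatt
Slc9b2, chr3:135013179-135013428, plus strand: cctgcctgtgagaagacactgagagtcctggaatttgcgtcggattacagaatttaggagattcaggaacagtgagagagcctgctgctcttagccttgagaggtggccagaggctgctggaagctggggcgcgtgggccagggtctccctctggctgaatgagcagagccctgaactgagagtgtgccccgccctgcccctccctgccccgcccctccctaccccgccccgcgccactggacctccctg

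The capitals mark GGAAAA, the core of an NFAT site, in the Atp6v0d2 and Dcstamp windows, TGANTCA, the AP-1 site, in the Atp6v0d2 window, and GAGGAAG, a form of the PU.1 site, in the Ocstamp window. The Slc9b2 window held none of the searched letters. Both strands were searched, so TTTTCC and CTTCCTC are the same letters on the other strand. Among the 9 rule genes, 2 held the NFAT letters (Atp6v0d2 and Dcstamp), 2 the AP-1 letters (Atp6v0d2 and Mmp9), 1 the PU.1 letters (Ocstamp) and 1 the MITF letters TCACGTG or TCATGTG (St18). Of 21770 windows of the same length, 21.9% held the NFAT letters, 6.17% the AP-1 letters, 10.3% the PU.1 letters and 5.92% the MITF letters. A match is a description of the letters and not a binding site.

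The tumors held 18487409 to 73211599 UMIs in 5210 to 12615 deposited nuclei. Untreated tumor 4 was the shallowest, with 7375 of its 12615 nuclei under 1000 UMIs. Barcodes were shared between tumors only within the 4 pairs of untreated and Minnelide tumors with the same number, which shared 132, 49, 111 and 63 barcodes, and 2 barcodes were score-positive in both tumors of a pair, in the second pair.

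Score-positive nuclei were spread very unevenly over the tumors. They made up 4.88% (462 of 9464), 30.2% (1591 of 5273), 6.78% (443 of 6530) and 1.93% (100 of 5185) of nuclei in untreated tumors 1 to 4. In Minnelide tumors 1 to 4 they made up 1.69% (193 of 11449), 0.756% (57 of 7544), 1.17% (115 of 9830) and 2.81% (136 of 4846). Untreated tumor 2 alone held 51.4% of all score-positive nuclei, and untreated tumor 4 lay below Minnelide tumor 4. The exact (Clopper-Pearson) 95% intervals, which cover counting error only, ran from 28.9 to 31.4% in untreated tumor 2 and from 0.573 to 0.978% in Minnelide tumor 2.

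The score joined nuclei of different kinds. Of the 3097 nuclei, 1464 (47.3%) carried a UMI of only 3 rule genes, and UMIs of Ctsk made up 32.9% of all rule-gene UMIs. When the same thresholds were applied to the other 6 genes, without Acp5, Ctsk and Mmp9, 876 nuclei (28.3% of the score-positive nuclei) still met them. These are called 6-gene nuclei below. The split was one of several definitions listed for comparison, and the weight given to it was decided after the data had been seen.

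The 6-gene nuclei carried most of the rule genes at once. St18 was detected in 98.0% of them, Ctsk in 96.7%, Atp6v0d2 in 96.4%, Nyap2 in 85.5%, Slc9b2 in 82.5%, Acp5 in 81.1%, Mmp9 in 74.9%, Dcstamp in 68.8% and Ocstamp in 35.2%. In the other 2221 score-positive nuclei, Ctsk was detected in 96.9%, Acp5 in 87.5% and Mmp9 in 82.9%, but St18 in 21.4%, Atp6v0d2 in 21.2%, Slc9b2 in 17.8%, Dcstamp in 10.7%, Nyap2 in 9.77% and Ocstamp in 7.70%. Among these other nuclei, 65.6% had a UMI of just 3 rule genes, and Ctsk gave 41.7%, Acp5 19.3% and Mmp9 16.6% of their rule-gene UMIs.

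At the edge of the rule, the 302 nuclei with a score from 20 to 22 had a median of 2.17 UMIs of the 6 genes per 10000, and the 305 nuclei just outside, with a score from 18 to 20 and 3 genes or more, had a median of 2.44. A further 1097 nuclei reached a score of 20 with only 2 rule genes detected. The threshold thus ran through a continuous range of scores.

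**Figure D1:**
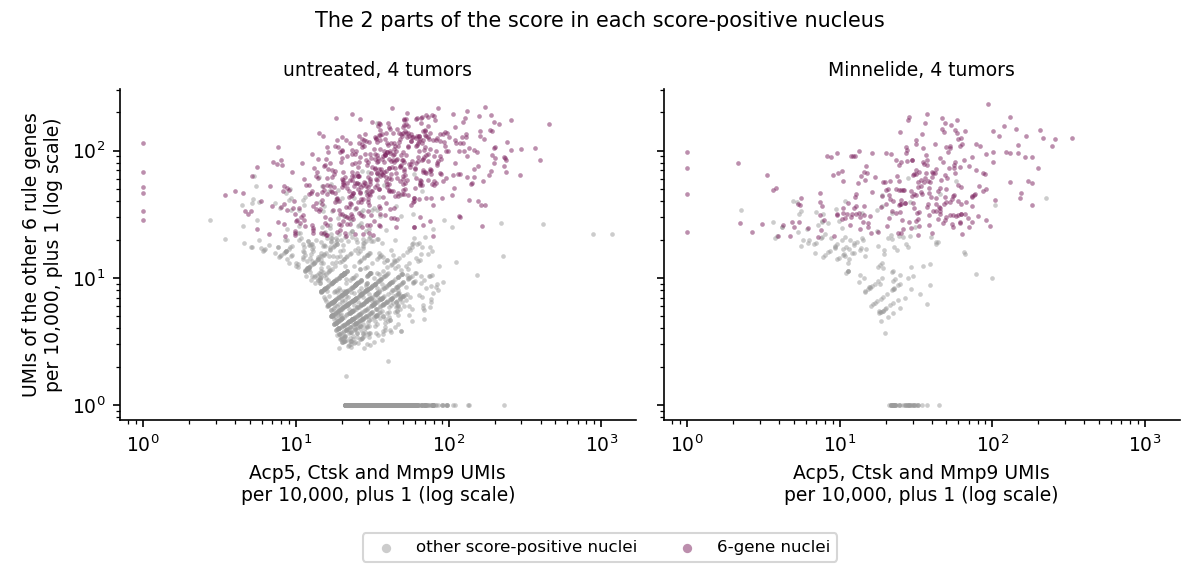
Each point is 1 score-positive nucleus in the 4 untreated (left) or the 4 Minnelide (right) tumors, with its Acp5, Ctsk and Mmp9 UMIs per 10000 on the x axis and its UMIs of the other 6 rule genes per 10000 on the y axis, both plus 1 on log scales. The 876 6-gene nuclei (purple) sit in the upper part of both panels, and the 2221 other nuclei (gray) lie mostly below them, many at 0 UMIs of the 6 genes.

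The classes of nuclei were split differently in each tumor. The 6-gene nuclei numbered 84, 168, 239 and 89 in untreated tumors 1 to 4 and 115, 41, 56 and 84 in Minnelide tumors 1 to 4. They were 18.2%, 10.6%, 54.0% and 89.0% of the score-positive nuclei in the untreated tumors and 59.6%, 71.9%, 48.7% and 61.8% in the Minnelide tumors. Of the 1591 score-positive nuclei of untreated tumor 2, 1423 were therefore not 6-gene nuclei.

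Except in untreated tumor 2, most UMIs of the 3 enzyme genes lay outside the score-positive nuclei. Nuclei below the rule held 74.0%, 48.4%, 61.5% and 55.0% of the Acp5, Ctsk and Mmp9 UMIs of untreated tumors 1 to 4 and 74.9%, 71.9%, 83.2% and 66.5% of those of Minnelide tumors 1 to 4. In contrast, 6-gene nuclei held 39.8%, 67.4%, 70.8% and 79.1% of the UMIs of the other 6 genes in the untreated tumors and 52.0%, 61.4%, 52.5% and 69.1% in the Minnelide tumors. The ratio of the 3 enzyme genes to the 6 genes was 0.328 to 1.54 in 6-gene nuclei, 1.12 to 5.37 in the other score-positive nuclei and 1.76 to 8.71 in nuclei below the rule.

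**Figure D2:**
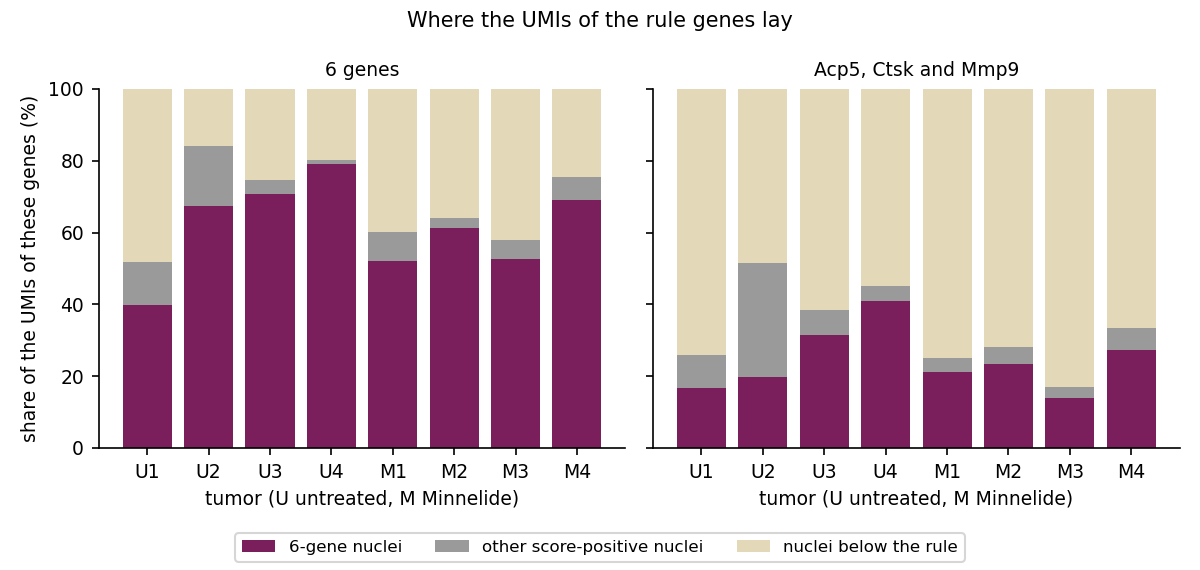
Bars give, for each tumor (U1 to U4 untreated, M1 to M4 Minnelide), the percent of all UMIs of the 6 genes (left) and of Acp5, Ctsk and Mmp9 (right) found in 6-gene nuclei, other score-positive nuclei and nuclei below the rule. The share of the 6 genes in 6-gene nuclei was 39.8 to 79.1%, and the share of the 3 enzyme genes in nuclei below the rule was 48.4 to 83.2%.

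RNA of the rule genes was also measured in other nuclei. Nuclei below the rule carried a pooled score of 4.45, 10.2, 4.66 and 1.66 per 10000 UMIs in the untreated tumors and 2.22, 0.870, 2.68 and 3.19 in the Minnelide tumors. Nuclei that passed an endothelial marker rule met the 9-gene rule in 2.19%, 11.4%, 6.43% and 1.06% of cases in untreated tumors 1 to 4 and in 5.16%, 0.926%, 1.85% and 0.752% in Minnelide tumors 1 to 4, on 35 to 2605 such nuclei a tumor (35 in untreated tumor 2) and at median depths of 2010 to 8184 UMIs against 2098 to 4977 in score-positive nuclei. The endothelial rule did not remove tumor cells, and in untreated tumor 1 it took in 2605 of 9464 nuclei, so the class can hold tumor cells with endothelial genes. At the depth of each nucleus the endothelial share was above the share among all nuclei in Minnelide tumors 1, 2 and 3. At an equal 1000 UMIs this held in Minnelide tumors 1 and 2. It turned in Minnelide tumor 3 (0.738% of endothelial against 0.865% of all nuclei). How far the endothelial share measures background was not tested. Fibroblast-rule nuclei met fibroblast thresholds and neither those for endothelial nor for macrophage markers, and tumor cells were not removed. They met the 9-gene rule in 5.16%, 30.8%, 6.32% and 0.820% of cases in untreated tumors 1 to 4. In Minnelide tumors 1 to 4 these shares were 1.58%, 0.831%, 0.985% and 2.59%. There were 1463 to 8146 fibroblast-rule nuclei a tumor, among them 4411 of 5273 nuclei in untreated tumor 2 and 8146 of 11449 in Minnelide tumor 1. Where this class holds most nuclei of a tumor, its share is largely that of all nuclei. In untreated tumor 2 the score-positive share, the endothelial share and the score of nuclei below the rule were each the highest of the 8 tumors. Of the endothelial nuclei, 0.576%, 2.86%, 5.71% and 1.06% were 6-gene nuclei in the untreated tumors and 3.61%, 0.926%, 1.11% and 0.501% in the Minnelide tumors. For this stricter class the endothelial share exceeded that of all nuclei in untreated tumor 3 (16 of 280 endothelial nuclei) and in Minnelide tumors 1, 2 and 3 (7 of 194, 4 of 432 and 3 of 271). At 1000 UMIs it was 2.86% against 2.83% in untreated tumor 3, 1.55% against 0.480% in Minnelide tumor 1 and 0.694% against 0.464% in Minnelide tumor 2, but 0 of 271 against 0.387% in Minnelide tumor 3. How many 6-gene nuclei in these tumors were other cells with osteoclast RNA was not tested.

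Gene expression placed most 6-gene nuclei together. Leiden clustering of all nuclei gave 29 clusters, and cluster 12 held 775 nuclei, of which 733 (94.6%) were score-positive and 650 were 6-gene nuclei. The cluster with the most score-positive nuclei, cluster 22, held 815 among 2760 nuclei (29.5%), and 95.1% of its nuclei came from untreated tumor 2. Among the 40 nearest neighbors of a nucleus, the median share of score-positive nuclei was 87.5 to 100% for 6-gene nuclei, 2.5 to 30% for the other score-positive nuclei and 0 to 15% for nuclei below the rule, over the 8 tumors. In untreated tumor 1, 56 of the 84 6-gene nuclei lay in cluster 5 and 3 in cluster 12. All 501 nuclei of cluster 5 came from this tumor, and the clustering made no correction for differences between tumors. The median neighbor share of its 6-gene nuclei was 98.75%. The clustering left out the 9 rule genes and the mitochondrial genes. The shares were not tested and are a description.

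Markers that the rule did not use are described next. Counts were summed over the nuclei of a class in each tumor and are given as counts per 1000000 UMIs (CPM). Gpr137b and Jdp2 belong to the markers of the osteoclast label itself, chosen with earlier results of these data known. Their level is therefore a description and no independent check of the label. Gpr137b, a lysosomal membrane protein of osteoclasts, stood at 1020, 870.1, 910.2 and 1256 CPM in 6-gene nuclei of untreated tumors 1 to 4 and at 735, 652, 541 and 710.1 CPM in those of Minnelide tumors 1 to 4. The median over the 8 tumors was 803 CPM in 6-gene nuclei, 189 CPM in the other score-positive nuclei, 117 CPM in nuclei that met a macrophage marker rule and 12.4 CPM in the remaining nuclei. All 8 tumors thus had Gpr137b above every macrophage value, and the same held for Jdp2.

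Jdp2, an AP-1 family factor required for osteoclast formation, stood at 1066, 1309, 1449 and 1880 CPM in the untreated and 680, 899, 1358 and 1296 CPM in the Minnelide 6-gene nuclei, against a median of 72.0 CPM in macrophage-rule nuclei. Nfatc1, the master transcription factor of osteoclasts, stood at 1368, 1332, 1336 and 1582 CPM in the untreated and 767, 1033, 1137 and 1279 CPM in the Minnelide 6-gene nuclei. Its median was 128 CPM in macrophage-rule nuclei and 69.0 CPM in the remaining nuclei. For both factors, every Minnelide value lay below the highest untreated value, and Minnelide tumor 1 was the lowest of the 8 tumors.

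Of 10 osteoclast receptors, 8 had a higher median in 6-gene than in macrophage-rule nuclei, and 1 was lower in all 8 tumors. Tnfrsf11a (RANK) stood at 850, 778, 669 and 951 CPM in the untreated and 629, 761, 530 and 561 CPM in the Minnelide 6-gene nuclei, with a median of 247 CPM in macrophage-rule nuclei and 14.6 CPM in the remaining nuclei. Oscar, a collagen receptor that gives osteoclast precursors their second signal, stood at 576, 412, 384 and 323 CPM in the untreated and 137, 425, 236 and 356 CPM in the Minnelide 6-gene nuclei, and at 3.46 CPM or less in the macrophage-rule nuclei of every tumor. Csf1r, the receptor that macrophages and osteoclasts share, stood at 453, 441, 436 and 584 CPM in the untreated and 306, 346, 377 and 400 CPM in the Minnelide 6-gene nuclei, with a median of 194 CPM in macrophage-rule nuclei.

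Other receptors varied between tumors. Itgb3, the beta 3 chain of the integrin that binds bone matrix, was lowest in untreated tumor 1, at 107 CPM, and 278 to 534 CPM in the 6-gene nuclei of the other tumors. Calcr, the receptor for calcitonin and a marker of mature osteoclasts, stood at 80.2, 33.6, 35.4 and 189 CPM in the untreated and at 24.1, 183, 0 and 51.2 CPM in the Minnelide 6-gene nuclei. Siglec15, a receptor that takes part in precursor fusion, had a median of 81.4 CPM in 6-gene nuclei and 0.425 CPM in the remaining nuclei.

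Genes of acid and mineral transport were also high in the class. Of the matrix-degrading genes, only the rule genes Acp5, Ctsk and Mmp9 lay above macrophage-rule nuclei in all 8 tumors. Clcn7, the chloride/proton exchanger that accompanies acid secretion, had a median of 205 CPM in 6-gene nuclei, 52.8 CPM in macrophage-rule nuclei and 27.7 CPM in the remaining nuclei. Snx10, a sorting protein of the resorptive membrane, had a median of 458 CPM against 137 CPM in macrophage-rule nuclei. Slc37a2, a lysosomal transporter of osteoclasts, had 736 CPM against 65.2 CPM, and the V-ATPase subunit gene Atp6v1b2 had 1094 CPM against 132 CPM.

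Among the lists, genes were counted when the level in 6-gene nuclei lay above that in macrophage-rule nuclei in all 8 tumors, which 7.54% of 10519 genes did. All 8 genes of acid and mineral transport did so, as did 7 of 10 osteoclast receptors, 7 of 14 genes of osteoclast signaling and transcription, 12 of 25 V-ATPase subunits, 6 of 14 genes of fusion and the sealing zone, 3 of 8 matrix-degrading genes and 2 of 6 brakes on osteoclast formation. Below macrophage-rule nuclei in all 8 tumors lay 3 of 6 brakes, 2 of 8 matrix-degrading genes and 1 each of the receptor, fusion and V-ATPase lists. Of all genes, 7.89% did so. Against the remaining nuclei, all 14 signaling and transcription genes stood higher in 8 of 8 tumors, which 15.9% of genes did. Of the macrophage list, 12 of 16 measured genes lay below the macrophage-rule nuclei in all 8 tumors, which 7.89% of genes did, but 8 of the 12 are genes of the macrophage rule, for which this was fixed by the choice of nuclei. The fusion, V-ATPase and matrix lists hold genes of the 9-gene rule (Dcstamp and Ocstamp, Atp6v0d2, and Acp5, Ctsk and Mmp9), whose higher level was likewise fixed, so these counts describe the class and were not tested.

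**Figure D3:**
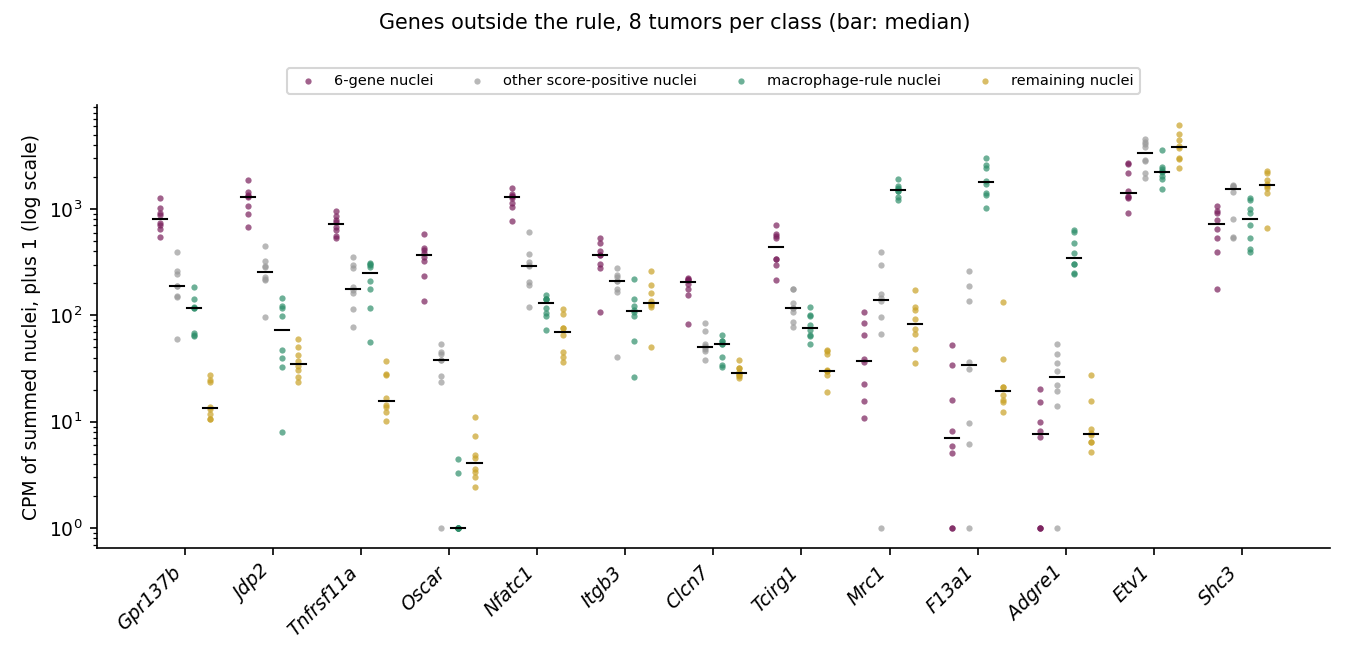
Each point is 1 tumor, with the CPM of a gene outside the rule, plus 1 on a log scale, for 4 classes of nuclei, and bars mark medians over 8 tumors. Osteoclast genes from Gpr137b to Tcirg1 are highest in 6-gene nuclei (Nfatc1 median 1305 CPM), Mrc1, F13a1 and Adgre1 are highest in macrophage-rule nuclei, and the tumor genes Etv1 and Shc3 are present in all classes.

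Mrc1, F13a1 and Adgre1 helped to choose the macrophage-rule nuclei, so that their higher level there restates the rule. Mrc1, the mannose receptor, had a median of 36.5 CPM in 6-gene nuclei against 1513 CPM in macrophage-rule nuclei and 82.4 CPM in the remaining nuclei. F13a1, a clotting factor subunit of tissue macrophages, had 6.10 CPM in 6-gene, 1772 CPM in macrophage-rule and 18.5 CPM in the remaining nuclei. Irf8, which restrains osteoclast formation, had a median of 5.06 CPM in 6-gene nuclei against 79.6 CPM in macrophage-rule nuclei.

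The largest median differences from macrophage-rule nuclei, on the log2(CPM + 10) scale, were those of Nyap2 (6.89), Atp6v0d2 (6.39), Dgki (5.89), Slc9b2 (5.87), Akap6 (5.78), Mst1r (5.62), Dcstamp (5.41), Hs3st4 (5.31), Rims2 (5.21), Oscar (5.17), Cacnb2 (5.05), Pip5k1b (4.57), Ctsk (4.39), Ncald (4.15) and Edil3 (3.94). Of these 15 genes, 5 were rule genes, and F13a1, Mrc1 and Adgre1 below belong to the macrophage rule. Dgki codes for a diacylglycerol kinase, Akap6 for an anchor of protein kinase A, Mst1r for the RON receptor kinase and Pip5k1b for a phosphoinositide kinase. In the other direction stood F13a1 (-6.81), Slc9a9 (-5.46), Mrc1 (-5.22), Cacna1d (-5.11), Adgre1 (-4.72), Arhgap15 (-4.53), Aoah (-4.45), March1 (-4.37), Mctp1 (-4.18) and Kcnk13 (-4.09).

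The genes outside the rule whose level followed the summed 9-gene score most closely over 24 points, 3 classes in each of 8 tumors, were Csf1r (Spearman rho 0.942), Gsap (0.932), Rin3 (0.931), Dock10 (0.930), St3gal1 (0.927), Pdgfb (0.926), Tnfrsf11a (0.924), Tnfaip3 (0.922), Slc37a2 (0.920) and Tgfbr1 (0.919). The 3 points of a tumor share a library and its depth, and the class with the high score was chosen by it, so no p-value is given.

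Markers of other cell types differed widely in level. Summed over each list, neutrophil and marrow precursor markers reached 0 to 4.94 CPM in 6-gene nuclei, B cell markers 0 to 24.7 CPM, T and NK cell markers 0 to 51.2 CPM and megakaryocyte markers 0 to 14.4 CPM. Myocyte markers (11 genes) summed to 2832 to 10350 CPM in the untreated and 721 to 8579 CPM in the Minnelide 6-gene nuclei. Fibroblast markers (9 genes) summed to 798 to 4962 CPM in the untreated and 1562 to 4256 CPM in the Minnelide 6-gene nuclei, endothelial markers (11 genes) to 341 to 1631 and 385 to 1329 CPM, and osteoblast markers (7 genes) to 144 to 989 and 335 to 741 CPM. Tumor markers (15 genes, targets of the fusion such as Etv1 and Etv4 among them) were detected in 91.7 to 100% of 6-gene nuclei thinned to 1000 UMIs. Their sum was 4940, 9773, 7295 and 8982 CPM in the untreated and 13620, 8915, 15480 and 13510 CPM in the Minnelide 6-gene nuclei, against 11900 to 25950 CPM in the remaining nuclei. A doublet caller marked 0 to 17.6% of 6-gene nuclei per tumor. How much of the signal in these nuclei came from doublets or free RNA was not tested.

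Score-positive nuclei were a smaller share of nuclei in the Minnelide tumors than in the untreated tumors, without passing the test. The mean share was 10.9% ± 12.98 in untreated tumors and 1.60% ± 0.887 in Minnelide tumors (SD, n = 4 each), a difference of -9.34 percentage points (exact permutation test, two-sided, p = 0.0571), and the groups overlapped. The smallest p that 4 against 4 tumors allow is 0.0286. Without untreated tumor 2 the untreated mean was 4.53% ± 2.45 (n = 3) and the difference -2.93 points (exact permutation test, p = 0.0571). Without the shallow untreated tumor 4 the difference was -12.3 points, and with nuclei of at least 2000 UMIs it was -7.71 points, both with an exact permutation p of 0.0286 and with no overlap between the groups. In snRNA-seq a share falls when other nuclei become more frequent, which cannot be told apart here from a loss of these nuclei.

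The difference in percentage points was smaller for the 6-gene nuclei, and it did not pass the test. The 6-gene nuclei made up 0.888%, 3.19%, 3.66% and 1.72% of nuclei in untreated tumors 1 to 4 and 1.00%, 0.544%, 0.570% and 1.73% in Minnelide tumors 1 to 4. Untreated tumors 2 and 3 were the highest, but untreated tumor 1 lay below Minnelide tumors 1 and 4, so the groups overlapped. The means were 2.36% ± 1.29 and 0.963% ± 0.556, a difference of -1.40 points (exact permutation test, two-sided, p = 0.143). Leaving out each tumor in turn gave differences from -1.89 to -0.967 points, with exact permutation p from 0.0571 to 0.257, the highest without untreated tumor 3, Minnelide tumor 2 or Minnelide tumor 3. By cluster 12 in place of the rule the difference was -1.13 points (exact permutation test, p = 0.257). Cluster 12 took in only 0.0317% of nuclei in untreated tumor 1, whose 6-gene nuclei lay mostly in cluster 5. It thus undercounts that tumor and lowers the untreated mean.

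**Figure D4:**
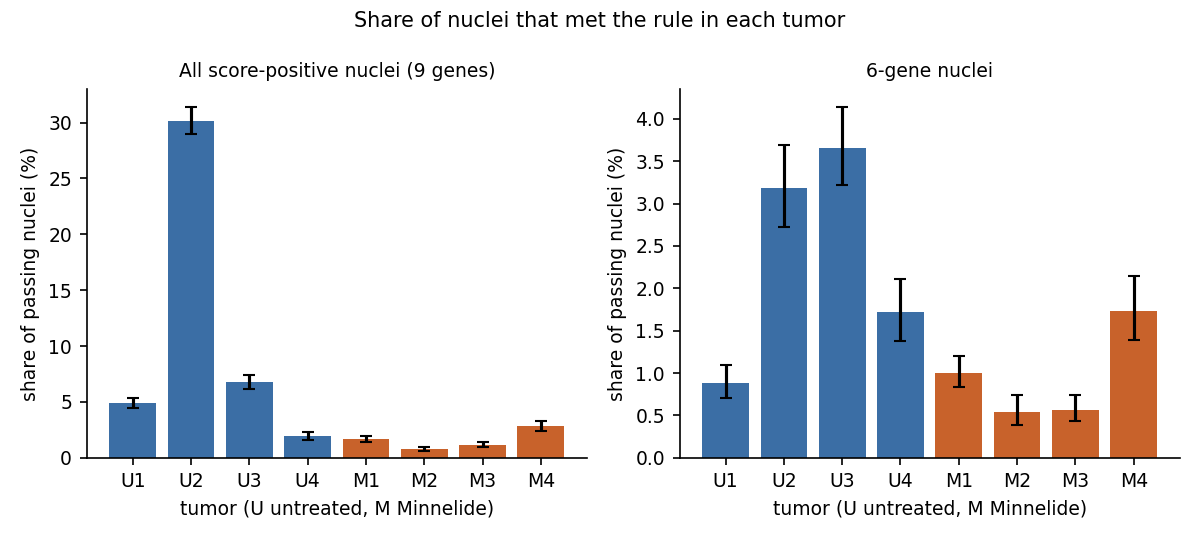
Bars give the percent of passing nuclei that were score-positive (left) or 6-gene nuclei (right) in each tumor (U1 to U4 untreated, M1 to M4 Minnelide), with exact 95% binomial intervals for counting error only. The left panel is dominated by untreated tumor 2 at 30.2%, whereas on the right untreated tumors 2 and 3 stand at 3.19% and 3.66% and the other 6 tumors at 0.544 to 1.73%.

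Depth was set equal by drawing 1000 UMIs from each nucleus. After this the score-positive share was 3.30%, 16.1%, 5.27% and 1.66% in untreated tumors 1 to 4 and 1.21%, 0.636%, 0.865% and 2.29% in Minnelide tumors 1 to 4. The thinned share of 6-gene nuclei was 0.550%, 2.48%, 2.83% and 1.37% in the untreated and 0.480%, 0.464%, 0.387% and 1.24% in the Minnelide tumors. The order of the untreated tumors was kept in both definitions. Thinned endothelial nuclei met the 9-gene rule in 1.61%, 8.57%, 4.64% and 0.796% of cases in the untreated and 3.09%, 0.926%, 0.738% and 0.752% in the Minnelide tumors.

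The balance of score-positive and macrophage-rule nuclei did not pass the test. Score-positive nuclei were 43.5%, 97.0%, 90.2% and 75.2% of score-positive plus macrophage-rule nuclei in untreated tumors 1 to 4 and 60.7%, 27.5%, 60.9% and 87.2% in Minnelide tumors 1 to 4. The means were 76.5% ± 23.8 and 59.1% ± 24.4 (SD, n = 4 each), a difference of -17.4 points (exact permutation test, two-sided, p = 0.343). With 6-gene nuclei in their place the values were 11.8%, 63.6%, 81.3% and 72.4% in the untreated and 47.3%, 21.4%, 41.8% and 77.8% in the Minnelide tumors, a difference of -10.2 points (exact permutation test, p = 0.600). Untreated tumor 1 was low by both counts and held 600 macrophage-rule nuclei, against 33 to 50 in the other untreated tumors. Without it the difference of score-positive nuclei was -28.4 points, and without Minnelide tumor 2, the lowest of the Minnelide tumors, it was -6.89 points. It was -10.6 points without untreated tumor 2 and -26.8 points without Minnelide tumor 4, and no alternative passed the test.

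The rule itself read the UMI number of a nucleus, so the depth of the chosen nuclei is a description. The median of score-positive nuclei was 2098, 2302, 2466 and 2405 UMIs in untreated tumors 1 to 4 and 4977, 3451, 3507 and 3120 UMIs in Minnelide tumors 1 to 4, with no overlap. The mean of the tumor medians was 2318 ± 161 and 3764 ± 827 UMIs, a difference of 1446 UMIs (SD, n = 4 each). For 6-gene nuclei the medians were 5032, 4287, 3800.0 and 2530 UMIs in the untreated and 6176, 3834, 6063 and 3756 UMIs in the Minnelide tumors, which overlapped, with a difference of 1045 UMIs. The other score-positive nuclei had medians of 1791, 2222, 1795 and 1341 UMIs in the untreated and 3529, 2446, 1995 and 2132 UMIs in the Minnelide tumors, which overlapped. Medians of nuclei below the rule were 3644, 3687, 2685 and 1720.0 UMIs in the untreated and 4027, 2919, 3356 and 2933 UMIs in the Minnelide tumors.

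No gene passed the test for a difference between Minnelide and untreated tumors within score-positive nuclei. By edgeR's quasi-likelihood test on counts summed per tumor, 0 of 9144 genes (0%) had a Benjamini-Hochberg adjusted p under 0.05. At an unadjusted p under 0.05, 115 genes (1.26%) were higher and 167 (1.83%) lower in Minnelide tumors, and DESeq2 also called 0 genes. Without untreated tumor 2, 1 gene passed, Mdk, which codes for the growth factor midkine (log2 fold change 3.06).

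Genes with the smallest p in score-positive nuclei, none of which passed, were named by the rule stated in the methods. Ptchd4, which codes for a patched-domain membrane protein, stood at 21.0, 78.5, 72.5 and 42.8 CPM in the untreated and 194, 184, 160 and 281 CPM in the Minnelide tumors (log2 fold change 1.92, SE 0.399, edgeR adjusted p = 1.00). Cenpa, the histone variant of the centromere, had a log2 fold change of 1.15. Slc8a3, a sodium/calcium exchanger of muscle and nerve, had -2.22, Mybpc2, a myosin-binding protein of fast muscle, had -3.24, and Epdr1 had -1.36. The 11 myocyte markers summed to 4709 to 19120 CPM in untreated and 814 to 8919 CPM in Minnelide score-positive nuclei, and the part of muscle RNA in the values of Slc8a3 and Mybpc2 was not tested. For each of these genes the 4 Minnelide values lay on one side of the 4 untreated values, which held for 1.02% of tested genes in the higher and 0.930% in the lower direction.

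Within the 6-gene nuclei, 0 of 6853 genes (0%) passed in edgeR, where the smallest adjusted p was 0.324. At an unadjusted p under 0.05, 406 genes (5.92%) were higher and 338 (4.93%) lower in Minnelide tumors. DESeq2 called 32 genes on the same counts, 27 higher and 5 lower, and gave no adjusted p for 2928 genes. Taking the nuclei of cluster 12 instead, edgeR called 2 genes, Ptchd4 (log2 fold change 2.71) and Mapk4, an atypical MAP kinase (-2.97). Untreated tumor 1 held only 3 nuclei of cluster 12 and was not part of that fit. Leaving out 1 tumor of the 6-gene nuclei gave 0 or 1 call. Mapk4 passed without untreated tumor 1, the tumor that the cluster 12 fit also lacked. C1qtnf3, a secreted relative of complement C1q, passed without Minnelide tumor 2.

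The 3 higher genes with the smallest p in 6-gene nuclei were Tnfaip6, Ptchd4 and Adamts16. Tnfaip6, which codes for the hyaluronan-binding protein TSG-6, stood at 4.12, 3.06, 5.30 and 14.5 CPM in the untreated and 104, 24.7, 36.0 and 105 CPM in the Minnelide 6-gene nuclei (log2 fold change 3.68, SE 0.589, edgeR adjusted p = 0.324). Ptchd4 had a log2 fold change of 2.69 and Adamts16, a secreted metalloprotease, had 2.52, both with an adjusted p of 0.324 in edgeR. The groups did not overlap for these genes, as for 3.36% of tested genes in this direction. In the remaining nuclei the medians of Ptchd4 were 134 CPM in untreated and 380 CPM in Minnelide tumors, against 29.0 and 172 CPM in 6-gene nuclei. All 27 genes that DESeq2 called higher, Adamts6, Epha3, Neto2, Pde4b and Dach1 among them, had a higher median in the remaining nuclei than in 6-gene nuclei, in both groups, and the part of RNA from other nuclei in these values was not tested.

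The 3 lower genes were Plcl2, Prpf38b and Sptlc2. Plcl2, a catalytically inactive relative of phospholipase C, stood at 249, 245, 224 and 258 CPM in the untreated and 99.99, 138, 141 and 129 CPM in the Minnelide 6-gene nuclei (log2 fold change -0.92, SE 0.164, edgeR adjusted p = 0.324). Prpf38b, a pre-mRNA splicing factor, stood at 475, 375, 468 and 417 CPM in the untreated and 215, 232, 272 and 266 CPM in the Minnelide nuclei (log2 fold change -0.79). Sptlc2, a subunit of the first enzyme of sphingolipid synthesis, had a log2 fold change of -0.66. The groups did not overlap for these 3 genes, as for 3.6% of tested genes in this direction. DESeq2 called Plcl2, Prpf38b, Sptlc2, Tgfbr1 and Kcnip4 lower, and for 4 of these 5 genes the untreated median was higher in 6-gene nuclei than in the remaining nuclei.

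Listed osteoclast genes were mostly lower in the 6-gene nuclei of Minnelide tumors, with no single gene past the test. Over all 6853 genes, 52.7% had a log2 fold change below 0, and the median was -0.03. At an unadjusted p under 0.05 in edgeR, 4.93% of all genes were lower. Of the osteoclast signaling and transcription genes, 14 of 14 lay below 0 with a median of -0.41, and 5 had an unadjusted p under 0.05. These were the kinases Syk (-0.66) and Btk (-1.04), the phospholipase Plcg2 (-0.62), the lineage factor Spi1, or PU.1 (-0.56), and the AP-1 subunit Fos (-0.40). Of the receptors tested, 8 of 9 lay below 0 with a median of -0.42, 1 of them, Csf1r (-0.40), at an unadjusted p under 0.05. The adjusted p of these genes in edgeR was 0.384 to 0.457.

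The genes for resorption had the same sign. Of acid and mineral transport, 8 of 8 lay below 0 (median -0.53), with Plekhm1, a lysosome positioning protein, at -0.79, and values of -0.55 for Tcirg1, the osteoclast V-ATPase a3 subunit, and -0.50 for Clcn7. Of the 14 genes of fusion and the sealing zone 13 lay below 0 (median -0.44), and 6 had an unadjusted p under 0.05, namely Dcstamp (-0.79), Src (-0.63), Dock5 (-0.58), Cttn (-0.61), Fermt3 (-0.92) and Tln1 (-0.50). Src, Dock5, Cttn, Fermt3 and Tln1 build and turn over the actin ring of the sealing zone. Of the 18 V-ATPase subunits tested 16 lay below 0 (median -0.28), and Atp6v1b2 (-0.60) and Atp6v1d (-0.49) had an unadjusted p under 0.05. Of the matrix-degrading genes 7 of 7 lay below 0 (median -0.27), Ctsk at -0.59 and Acp5 at -0.40, none at an unadjusted p under 0.05. The brakes on osteoclast formation had the same sign, with 5 of 5 tested below 0 (median -0.33). These lists overlap with the rule, were chosen with earlier results known and give no test of their own.

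Tumor, cell cycle and chondrocyte genes had the other sign in the same nuclei. Over all 6853 genes, 47.3% lay above 0, and 5.92% were higher at an unadjusted p under 0.05 in edgeR. Of the tumor markers 13 of 13 tested lay above 0 (median 0.86), 6 of them at an unadjusted p under 0.05, and of the cell cycle genes 12 of 13 (median 0.54), 4 of them at an unadjusted p under 0.05, Top2a (0.62) among them. The 3 chondrocyte markers tested, the cartilage matrix genes Acan, Col2a1 and Col9a1, lay above 0 (median 1.55), all at an unadjusted p under 0.05. Myocyte markers lay below 0 in 8 of 8 (median -0.81), 1 of them at an unadjusted p under 0.05. CPM are shares of a total, so a higher share of tumor RNA and lower shares of osteoclast genes go together, and the part of one in the other was not tested. Interferon-response genes lay below 0 in 7 of 7 (median -0.52), and macrophage markers in 7 of 7 (median -0.40), with 907 to 1407 CPM of summed macrophage markers in untreated and 534 to 926 CPM in Minnelide 6-gene nuclei. In all score-positive nuclei the signaling and transcription genes had a median of -0.15, with 12 of 14 below 0 against 54.1% of all genes, and the cell cycle genes one of 0.49, with 25 of 26 above 0 against 45.9% of all genes. The myocyte markers had a median of -1.73 there, with 9 of 9 tested below 0.

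**Figure D5:**
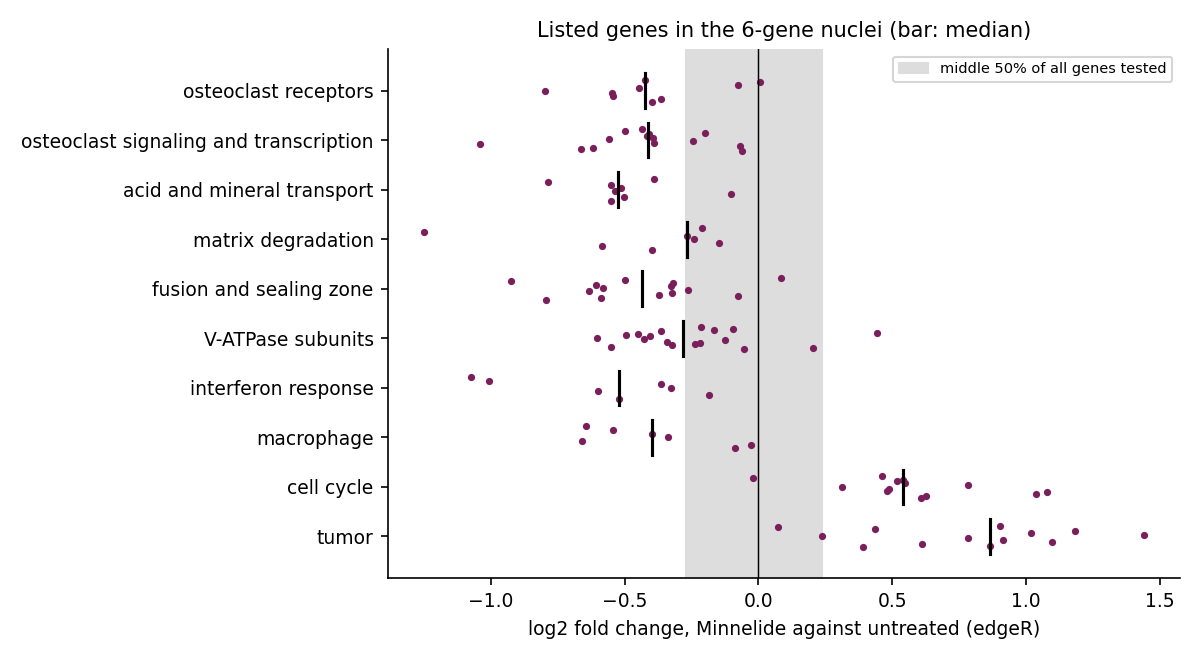
Each point is 1 gene of a list, with its edgeR log2 fold change between Minnelide and untreated tumors in the 6-gene nuclei on the x axis, bars mark list medians, and the gray band, from -0.27 to 0.24, holds the middle 50% of all 6853 tested genes. The osteoclast lists have medians from -0.53 to -0.27 and the tumor list has a median of 0.86. No gene of the tested 6853 passed at an adjusted p under 0.05.

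Whether Minnelide acted differently on score-positive and macrophage-rule nuclei was tested by a class-by-treatment term in edgeR with the tumor as a block. The term passed for 0 of 8551 genes (0%), with 64 genes (0.748%) higher and 125 (1.46%) lower at an unadjusted p under 0.05, and 43.5% of all differences above 0 and 56.5% below. With 6-gene nuclei it passed for 0 of 7758 genes (0%), with 149 genes (1.92%) higher and 150 (1.93%) lower at an unadjusted p under 0.05, and 47.6% of differences above 0 and 52.4% below. DESeq2 called 0 genes in both. Sgcz, a sarcoglycan of muscle, had the smallest p with 6-gene nuclei (difference of log2 fold changes -4.91, SE 0.913, edgeR adjusted p = 0.725) and passed without untreated tumor 2 in both definitions. It stood at 142, 207, 329 and 7.26 CPM in the untreated and 0, 49.4, 11.1 and 117 CPM in the Minnelide 6-gene nuclei, so both groups spanned a wide range and overlapped.

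The ligands that drive osteoclast formation were counted in the nuclei outside the score-positive and macrophage classes, a comparison added after the data had been seen. Csf1, macrophage colony-stimulating factor, stood at 76.2, 57.7, 61.7 and 33.6 CPM in the untreated and 19.3, 18.6, 21.2 and 20.7 CPM in the Minnelide tumors (log2 fold change -1.38, SE 0.208, edgeR adjusted p = 0.385). Tnfsf11, which codes for RANKL, stood at 23.3, 35.3, 49.2 and 35.9 CPM in the untreated and 5.95, 12.4, 8.21 and 19.1 CPM in the Minnelide tumors (log2 fold change -1.55, SE 0.416, edgeR adjusted p = 0.486). All 4 Minnelide values lay below all 4 untreated values for both ligands, as for 6.21% of 13829 tested genes, against 0.651% with all Minnelide values above.

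The call on these ligands depended on the tool. EdgeR called 0 of 13829 genes (0%), with 1330 genes at an unadjusted p under 0.05, whereas DESeq2 called 187, Csf1 (adjusted p = 7.19e-06) and Tnfsf11 (adjusted p = 0.0437) among them. Over all alternatives the adjusted p ran from 7.19e-06 to 0.890 for Csf1 and from 0.0437 to 0.890 for Tnfsf11. Il34, the second ligand of CSF1R, had a log2 fold change of -1.18 (edgeR adjusted p = 0.503), and Tnfrsf11b, which codes for the RANKL decoy osteoprotegerin, had -0.82 (edgeR adjusted p = 0.643).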

How the data were processed

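Nuclei had been extracted with the Miltenyi buffer and profiled with the 10x Genomics Chromium 3′ kit with on-chip multiplexing. The authors deposited 8 filtered matrices of whole-number UMI counts per gene and nucleus (19059 features, mm39), without normalization. Processing notes of the submitters name bcl2fastq 2.20 and Cell Ranger 7.0.1, whereas the headers of the deposited count matrices give Cell Ranger 9.0.1. The 8 matrices belong to 2 sample labels, 4 each. Members and gene lists were chosen with earlier results of these data known.

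Nuclei were scored from raw counts in Python 3.11.15 with numpy 2.4.6 and scipy 1.17.1. The macrophage rule, also a score of at least 20 with 3 genes, used 8 of 9 listed genes, since 1 had no feature, and left out score-positive nuclei. Endothelial nuclei met the same thresholds for endothelial markers and neither those for fibroblast nor for macrophage markers. No grouping by response was used. Of 331 listed genes, 7 had no feature. Scanpy 1.11.5 and igraph 0.11.9 gave Leiden clusters (2000 variable genes, 30 principal components, 40 neighbors, resolution 1.0) and Scrublet doublet calls, which were kept in. Shares per tumor were compared by exact permutation tests. Counts summed per tumor (at least 10 nuclei) were tested in R 4.3.3 with edgeR 4.0.16 (TMM, filterByExpr, quasi-likelihood, Benjamini-Hochberg) and, as an alternative, DESeq2 1.42.0. Score-positive sums held 57 to 1591 nuclei a tumor, 6-gene sums 41 to 239 and macrophage-rule sums in the first comparison 20 to 600, which limits precision. The tests were checked on simulated counts with known log2 changes of 2 or 3. All genes were drawn with the same fixed spread, so the power for smaller changes or for the spread of these tumors was not tested. Named genes were those past an adjusted p of 0.05, or the 3 with the smallest p in each direction where fewer passed, and the 15 and 10 with the largest differences from macrophage-rule nuclei. Further list genes, those at an unadjusted p under 0.05 and the ligands among them, were named after their values were seen. Some items that this rule names are not reported here. Alternatives were other thresholds, filters, scalings and definitions, and each tumor left out.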

Additional observations from a re-analysis of the deposited data

Results flagged for a closer look

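Of 42 groups of 4 values examined, 1 held a value far from the rest by Dixon's test, and chance gives about 1 in 20. Macrophage-rule nuclei were 6.34% of nuclei in untreated tumor 1, against 0.948%, 0.735% and 0.637% in untreated tumors 2 to 4. In this tumor score-positive nuclei were 43.5% of score-positive plus macrophage-rule nuclei, the lowest of the untreated tumors, and without it the difference between Minnelide and untreated tumors in that share was -28.4 percentage points.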

How the results depend on the processing

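The lower share of score-positive nuclei in Minnelide tumors kept its direction under all 28 alternatives, from -14.8 to -0.967 percentage points, with exact permutation p from 0.0286 to 0.429. It reached the smallest possible p with at least 2000 UMIs per nucleus (-7.71 points) and without untreated tumor 4, and leaving out each tumor gave -12.3 to -2.93 points. The cluster with the most score-positive nuclei gave the p of 0.429. The share of score-positive among score-positive plus macrophage-rule nuclei ran from -28.4 to -6.89 points over 11 alternatives. The higher UMI number of score-positive nuclei in Minnelide tumors, which the rule itself read and which is therefore a description, was 1042 to 1661 with each tumor left out, with no overlap of the groups, and 1045 for 6-gene nuclei, where the groups overlapped. Counts of called genes changed from 0 to 32 with DESeq2 and to 2 with cluster 12 in 6-gene nuclei, to 5 without a filter on low counts for the class-by-treatment term, to 187 with DESeq2 in the remaining nuclei, and to between 0 and 1 with each tumor left out in all fits. All tumors held at least 10 score-positive, 6-gene and macrophage-rule nuclei, so admitting every tumor repeated the same fit. In cluster 12, untreated tumor 1 held 3 nuclei and was left out of the test of genes. In the shallowest tumor, 7375 nuclei fell under 1000 UMIs, and with 500 UMIs as the minimum the share difference was -9.46 points. No paired analysis was possible because the labels give no replicate numbers to tumors, and the numbers used here only name the matrices.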
